A study of Arabidopsis thaliana with 24 samples.

Results

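WRKY proteins are plant transcription factors, and the genes described here are 58 WRKY genes of Arabidopsis chosen by locus identifier out of the 27416 genes in the count tables. They were taken as a family and not by the level or change of each gene, but with earlier results of these data known. The list does not hold every WRKY gene of Arabidopsis. Of the 58 genes, 47 had enough counts in these leaves to be tested, together with 19201 genes in all, and 11 did not. Among the 11, WRKY43 and WRKY56 had no count in any library.

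A WRKY protein carries the conserved WRKY domain with a zinc finger and binds the W-box, a short DNA element found in the promoters of many defence genes and of WRKY genes themselves. The family is sorted by domain number and zinc finger type into group I, subgroups IIa to IIe and group III. In leaves many members are induced quickly by microbial patterns, wounding and other stress, downstream of mitogen-activated protein (MAP) kinases and of the hormone salicylic acid, and others act in leaf senescence, nutrient supply, seed and trichome development.

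The study compared gene expression and DNA methylation of doubled-haploid Arabidopsis plants, which arise when the chromosome set of a haploid is doubled, with haploid and diploid plants. The RNA was from leaves of seedlings of 2 weeks grown on soil in long days with no treatment, and the 12 DNA methylation samples were not analysed here. The 12 RNA libraries form 6 groups of 2, named 1n (haploid), 2n (diploid, in columns headed WT), DH6, DH9 and DH14 (doubled-haploid lines) and sDH, for which the labels give no full name. Each DH group is 1 line, the names of the count tables carry Col for the haploid and for the diploid and no accession for the other groups, no induction genotype is named, and the labels do not say whether the 2 libraries of a group came from separate plants, so p-values measure only the spread between these libraries. Libraries are named by their column numerals, such as 1n 1 and 1n 2, 2n WT1 and WT2, or DH6 II and III.

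The libraries held 16484799 to 22146896 counts, and levels are given as CPM (a gene's share of a library's counts, scaled with edgeR's TMM factors). Mesophyll markers summed to 56950 and 53730 CPM in 1n, 37470 and 36440 in 2n and 39340 to 51890 in the other groups, and those of flower, seed and shoot meristem to at most 3.09, 1.43 and 0.442 CPM, with LEC1 of seed and EXP7 of root at 0 throughout. Root markers summed to 13.4 to 22.3 CPM and those of guard cells and trichomes to 67.9 to 95.9 CPM. Within the latter sum, the trichome marker GL2 stood at 3.03 and 2.905 CPM in 1n and at 6.05 to 10.8 CPM in the other groups. The trichome markers GL1 and GL3 stood at no more than 0.513 and 0.809 CPM. Of the root markers, SHR stood at 9.22 to 15.6 CPM and made up most of their sum. PYK10 stood at 0 and 0.126 CPM in 1n, 4.72 and 1.75 in DH6 and 0.578 and 2.79 in DH14. In 2n, DH9 and sDH it stood at 0.0535 to 0.658 CPM. The part of trichome or root content in the WRKY changes was not tested. The 1n libraries differed more from each other than those of other groups: over the 47 tested WRKY genes the median absolute log2 difference was 0.517 between 1n 1 and 1n 2, and 0.212 to 0.358 in the other groups. Over all tested genes it was 0.232 for 1n and 0.133 to 0.167 for the others. Of the 14 WRKY genes that differed by more than 1 on the log2 scale within 1n, 13 were higher in 1n 2, while WRKY30 was higher in 1n 1. How many of all tested genes differed that far, and in which direction, was not counted.

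The summed level of the 58 WRKY genes was highest in 2n and lowest in DH6 and sDH. Their summed level was 649 and 963 CPM in 1n, 1344 and 1581 in 2n, 417 and 442 in DH6, 872 and 770 in DH9, 1072 and 985 in DH14 and 406 and 493 in sDH. Both DH6 and sDH lay under every library of the other groups, and both 2n libraries lay above all others. Abundant genes weigh most in this sum. WRKY70 stood at 359 and 386 CPM in 2n and at 99.98 and 157 in 1n, and WRKY33 at 210 and 277 in 2n and at 48.5 and 119 in 1n. The median log2 change of the 47 tested genes in 2n against 1n was 0.03. In bulk leaf RNA, fewer cells that express a gene and less of its RNA per cell cannot be told apart. Among the 47 tested genes, 15 had their highest group mean in 1n (31.9%) and 16 in 2n (34%), while 16 had their lowest in DH6 (34%) and 17 in sDH (36.2%). Over all tested genes, 27% were highest in 1n, which is near the share of the WRKY genes, and 16.1% in 2n, while 14.8% were lowest in DH6 and 18.6% in sDH. The highest group mean was a median of 3.64 times the lowest for WRKY genes and 1.72 times for all tested genes. This ratio ran from 1.31 for WRKY1 to 94.6 for WRKY38.

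**Figure D1:**
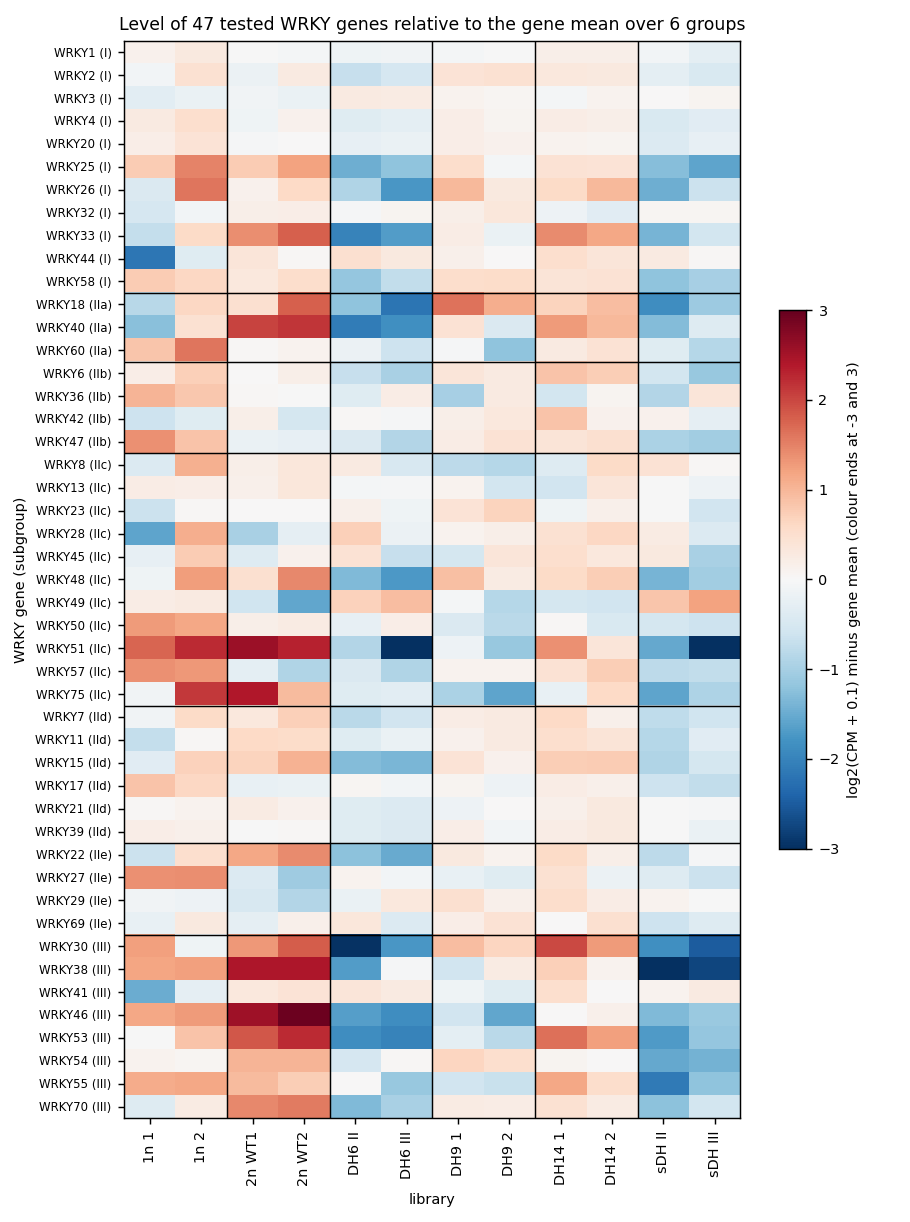
Heat map of the 47 tested WRKY genes, in rows by subgroup, across the 12 libraries in columns. Colour is log2(CPM + 0.1) minus the gene's mean over the 6 group means, with the colour scale ending at -3 and 3. Most rows are below their mean in DH6 and sDH, and the group III rows are above it in 2n.

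A gene is said to rise, fall or change where the Benjamini-Hochberg adjusted p of edgeR's quasi-likelihood test, adjusted over all 19201 genes, lay under 0.05. By the F-test over all 6 groups, 37 of the 47 WRKY genes differed (78.7%), beside 62% of all tested genes. Among DH6, DH9 and DH14, 23 differed (48.9%), beside 25.3% of all tested genes, and without DH6 III 14 did. All comparisons against 1n share the same 2 control libraries, as do those against 2n, so their counts are given side by side and are not independent. Where leaving out 1 library ended a call of a WRKY gene that is printed below, that library is named with the log2 change without it. Counts from fits that leave out 1 library, by DESeq2 or at an unadjusted p stand without the share of all tested genes. They show only how far a count depends on the library, method or threshold, and are no result about the family.

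Between diploid and haploid leaves, the share of WRKY genes that changed was near that of all genes. In 2n against 1n, 11 of 47 rose, 8 fell and 28 did not pass, a share of 40.4% changed beside 40.9% of all tested genes (21% rose and 19.9% fell). The median log2 change was 0.03 for the WRKY genes. Without 1n 1 the numbers were 9 risen and 12 fallen, and without 1n 2 they were 14 and 5. Without WT1 they were 9 and 5, and without WT2 they were 7 and 6. All 4 mesophyll markers also fell in 2n against 1n, and their part in the WRKY changes was not tested.

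Against 1n, most of the tested WRKY genes fell in DH6 and in sDH. In DH6, 2 rose and 30 fell (68.1% changed), beside 47.1% of all tested genes (22.6% rose, 24.5% fell). In sDH, 2 rose and 28 fell (63.8% changed), beside 48.5% (24.1% rose, 24.4% fell). In DH9, 4 rose and 13 fell (36.2% changed), beside 30.3% (15.5% rose, 14.8% fell). In DH14, 6 rose and 7 fell (27.7% changed), beside 24% (12.2% rose, 11.8% fell). Median log2 changes of the WRKY genes were -1.09 in DH6, -0.97 in sDH, -0.16 in DH9 and 0.03 in DH14, with medians over all genes within 0.05 of 0. The share changed in DH14 lies near that of all genes, while in DH9 the fallen share of the WRKY genes was 27.7% and the risen share 8.51%. With only the 2 compared groups in the fit, 1 rose and 7 fell of 45 tested in DH9, beside 16.4% of all genes changed, and in DH14 2 changed of 45, both lower, beside 8.78%. Without 1n 1, the fallen genes were 34 in DH6, 34 in sDH, 14 in DH9 and 9 in DH14, and without 1n 2 they were 23, 19, 8 and 5. The risen genes without 1n 1 were 2, 0, 1 and 1 in the same order, and without 1n 2 they were 5, 5, 10 and 12. At an unadjusted p under 0.05 with both 1n libraries, 4 rose in sDH, and DESeq2 called 1. Without DH9 1 the changed genes in DH9 were 10 and without DH9 2 they were 6. Without either DH14 library the changed genes in DH14 were 4. Of the 4 mesophyll markers, 3 fell against 1n in DH6 and sDH and 2 in DH9 and DH14, and their part in the WRKY changes was not tested.

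Against 2n, too, most changed WRKY genes were lower in DH6 and sDH. In DH6, 3 rose and 21 fell (51.1% changed), beside 25.1% of all tested genes (11.9% rose, 13.2% fell). In sDH, 2 rose and 25 fell (57.4% changed), beside 30.4% (15.4% rose, 15% fell). In DH9, 1 rose and 10 fell (23.4% changed), beside 17.2% (8.66% rose, 8.57% fell). In DH14, 5 rose and 6 fell (23.4% changed), beside 26.3% (12.7% rose, 13.6% fell). Median log2 changes were -0.46 in DH6, -0.68 in sDH, -0.27 in DH9 and 0.01 in DH14. Leaving out single libraries left 17 to 23 changed genes in DH6 and 19 to 24 in sDH. The risen genes in DH6 were 0 without WT2 and 1 without DH6 II or DH6 III, and 1 by DESeq2. Those in sDH were 0 without WT2 or sDH III, 1 without sDH II, and 0 by DESeq2, while 2 passed an unadjusted p under 0.05. In DH9 it left 7 without WT1, 7 without WT2, 6 without DH9 1 and 4 without DH9 2, and with only DH9 and 2n in the fit 1 rose and 16 fell of 44 tested, beside 20.2% of all genes changed. In DH14 it left 6 without WT1, 5 without WT2, 5 without DH14 1 and 3 without DH14 2. All 4 mesophyll markers rose against 2n in DH9 and in DH14 and 2 of 4 in DH6 and sDH, and their part in the WRKY changes was not tested.

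The 3 doubled-haploid lines were also compared directly. WRKY genes were higher in DH9 and in DH14 than in DH6. In DH9 against DH6, 19 of 47 rose (40.4%), beside 16.4% of all tested genes changed (9.33% rose, 7.1% fell). In DH14 against DH6, 25 rose (53.2%), beside 26.8% (14.1% rose, 12.7% fell). No WRKY gene fell in either of these comparisons by edgeR or DESeq2, while 2 in each were lower at an unadjusted p under 0.05. In DH14 against DH9, 2 rose (4.26%), beside 3.1% (1.55% rose, 1.56% fell). With only DH9 and DH14 in the fit, 7 rose and 3 fell of 44 tested, beside 10.6% of all genes changed. With all groups in the fit none fell there by edgeR, 2 were lower at an unadjusted p under 0.05, and DESeq2 called 1 lower. Median log2 changes were 0.47, 0.73 and 0.23 in this order of comparisons. Leaving out single libraries gave 10 risen in DH9 against DH6 without DH6 II, 7 without DH6 III, 8 without DH9 1 and 16 without DH9 2. For DH14 against DH6 it gave 18 to 21. For DH14 against DH9 it gave 2 without DH9 1, 1 without either DH14 library and 0 without DH9 2, where 6 genes passed an unadjusted p under 0.05.

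**Figure D2:**
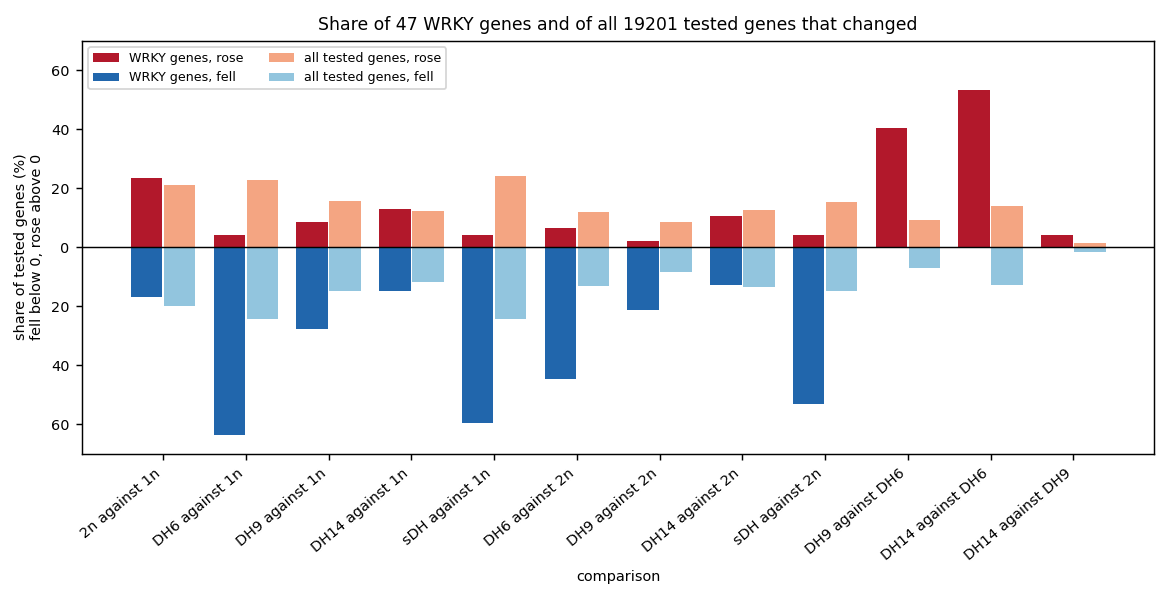
Percent of genes that rose (bars above 0) or fell (bars below 0) at an adjusted p under 0.05 in each of the 12 comparisons, for the 47 tested WRKY genes and for all 19201 tested genes. The bars of fallen WRKY genes are longest in DH6 and sDH, whether the control is 1n or 2n, and the 19 and 25 WRKY genes that rose in DH9 and DH14 against DH6 stand without a bar below 0.

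The list holds 8 group III genes, with roles in salicylic acid defence and in senescence, and all 8 were tested. Their summed level was 185 and 253 CPM in 1n, 561 and 625 in 2n, 86.5 and 112 in DH6, 239 and 222 in DH9, 297 and 251 in DH14 and 78.3 and 116 in sDH. Most of this sum was WRKY70 in every library, at 99.98 and 157 CPM in 1n and 359 and 386 in 2n. In 2n against 1n, 5 of 8 rose (62.5%, beside 21% of all tested genes) with a median log2 change of 1.25. Against 1n, 6 fell in DH6 (75%) and 7 in sDH (87.5%), with medians of -1.88 and -2.2, beside 24.5% and 24.4%. In DH9 the risen and fallen shares against 1n were 12.5% and 50%, beside 15.5% and 14.8%. Against 2n, 6 fell in DH6, 7 in sDH, 4 in DH9 and 4 in DH14, with medians of -2.92, -3.37, -1.5 and -0.80. These were 75%, 87.5%, 50% and 50%, beside 13.2%, 15%, 8.57% and 13.6% of all tested genes. Of the 5 genes risen in 2n, WRKY46, WRKY53, WRKY54 and WRKY70 passed whichever library was left out, and WRKY38 in none of these 4 fits, with log2 changes from 1.21 to 1.27. Fallen genes in DH6 against 1n were 5 without 1n 2 and 6 without any other library, and in sDH against 1n they were 6 or 7. In DH14 against 2n, 2 fell without DH14 2. In DH9 against 1n, 1 rose and 4 fell, and 1 fell without 1n 2 or DH9 2 and 2 without DH9 1.

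WRKY46 (AT2G46400), a regulator of defence and of drought and growth responses, differed in every group from both controls. Its level was 19.7 and 21.5 CPM in 1n, 51.7 and 67.4 in 2n, 2.70 and 2.32 in DH6, 5.81 and 2.91 in DH9, 8.82 and 9.79 in DH14 and 3.41 and 3.98 in sDH. Both 2n libraries were highest, 1n came next, and every library of the DH lines and sDH lay under 1n with no overlap. It rose in 2n against 1n (log2 change 1.53 ± 0.21 SE, n = 2 per group, edgeR adjusted p = 0.000217). Against 1n it fell in DH6 by 3.03 ± 0.26 (edgeR adjusted p = 1.05e-05), in DH9 by 2.25 ± 0.24 (9.76e-05), in DH14 by 1.14 ± 0.23 (0.00489) and in sDH by 2.48 ± 0.25 (2.14e-05). Against 2n the log2 changes were -4.56 ± 0.26 in DH6, -4.01 ± 0.25 in sDH, -3.78 ± 0.24 in DH9 and -2.67 ± 0.22 in DH14, with edgeR adjusted p of 2.94e-06, 1.72e-06, 1.71e-05 and 1.98e-05. All 9 of these calls were kept on leaving out each library in turn. Between lines, it was higher in DH14 than in DH6 by 1.89 ± 0.27 (edgeR adjusted p = 0.000735) and than in DH9 by 1.10 ± 0.25 (0.0416). The last call was lost without DH9 2, DH14 1 or DH14 2, with log2 changes from 0.678 to 1.67 over the fits that leave out 1 library.

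WRKY53 (AT4G23810), an activator of leaf senescence that also acts in defence, differed between the lines themselves. It stood at 16.8 and 30.6 CPM in 1n, 61.7 and 80.4 in 2n, 4.58 and 4.17 in DH6, 13.9 and 9.68 in DH9, 53.2 and 39.7 in DH14 and 5.18 and 7.55 in sDH. DH14 lay between 1n and 2n without overlapping either, DH9 lay below 1n, and DH6 and sDH lay below DH9. The rise in 2n against 1n was 1.58 ± 0.27 on the log2 scale (edgeR adjusted p = 0.000913). Against 1n it rose in DH14 by 0.97 ± 0.27 (edgeR adjusted p = 0.0247) and fell in DH9 by 1.01 ± 0.29 (0.0218), in DH6 by 2.43 ± 0.31 (0.000119) and in sDH by 1.91 ± 0.30 (0.000436). The rise in DH14 was lost without 1n 1 (0.606) or DH14 1 (0.749), and the fall in DH9 without 1n 2 (-0.515) or DH9 2 (-0.761). Against 2n the log2 changes were -4.02 ± 0.31 in DH6, -2.59 ± 0.29 in DH9 and -3.49 ± 0.30 in sDH (edgeR adjusted p = 1.28e-05, 0.000279 and 1.5e-05), and in DH14 the change of -0.61 ± 0.26 did not pass (0.108). It was higher in DH14 than in DH6 by 3.40 ± 0.31 (edgeR adjusted p = 0.000114) and than in DH9 by 1.98 ± 0.28 (0.00391), the latter lost without DH9 2 (1.74). It was higher in DH9 than in DH6 by 1.43 ± 0.32 (0.0133), lost without DH6 II, DH6 III (1.36) or DH9 1 (1.14), with log2 changes of at most 1.67 over the fits that leave out 1 library.

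WRKY70 (AT3G56400) promotes salicylic acid responses and restrains jasmonate responses, and WRKY54 (AT2G40750) is its closest relative. WRKY70 stood at 99.98 and 157 CPM in 1n, 359 and 386 in 2n, 52.4 and 67.2 in DH6, 157 and 153 in DH9, 182 and 157 in DH14 and 56.0 and 89.7 in sDH. The 2n libraries were far above the rest, DH6 and sDH lay below both 1n libraries, and DH9 and DH14 lay at or near the higher 1n library. It rose in 2n against 1n by 1.54 ± 0.23 (edgeR adjusted p = 0.000395) and fell against 1n in DH6 by 1.10 ± 0.23 (0.00266) and in sDH by 0.82 ± 0.23 (0.0128). The call in sDH was lost without 1n 2 (-0.458) or sDH II (-0.513). Against 2n it was lower in all lines and in sDH. The log2 changes against 2n were -2.64 ± 0.24 in DH6, -2.36 ± 0.24 in sDH, -1.27 ± 0.23 in DH9 and -1.14 ± 0.23 in DH14 (edgeR adjusted p = 3.08e-05, 4.07e-05, 0.00439 and 0.00454). The call in DH9 was lost without DH9 2 (-1.25) and that in DH14 without DH14 2 (-1.05).

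WRKY54 had another order of groups. It stood at 37.3 and 36.1 CPM in 1n, 71.3 and 70.7 in 2n, 24.5 and 35.4 in DH6, 54.6 and 49.8 in DH9, 36.7 and 34.9 in DH14 and 11.9 and 13.1 in sDH. sDH was lowest with no overlap, DH6 and DH14 touched or neared the 1n range, and DH9 lay between 1n and 2n. It fell in sDH against 1n by 1.55 ± 0.15 (edgeR adjusted p = 1.79e-05), whereas its change in DH6 against 1n was -0.29 ± 0.14 and did not pass (0.117). The rise in 2n against 1n was 0.95 ± 0.14 (edgeR adjusted p = 0.000382). In DH9 against 1n it rose by 0.51 ± 0.14 (0.0206), a call lost without 1n 2 (0.487), DH9 1 (0.444) or DH9 2 (0.578). Against 2n it fell in DH6 by 1.25 ± 0.14, in DH14 by 0.99 ± 0.14 and in sDH by 2.51 ± 0.15 (edgeR adjusted p = 0.000127, 0.000656 and 1.58e-06).

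WRKY38 (AT5G22570), a repressor of basal defence, and WRKY55 (AT2G40740), which acts in senescence and defence and is the protein-coding neighbour of WRKY54 in the reference annotation, were nearly silent in sDH. WRKY38 stood at 3.21 and 3.35 CPM in 1n, 7.79 and 7.71 in 2n, 0.360 and 1.33 in DH6, 0.878 and 1.63 in DH9, 2.31 and 1.47 in DH14 and 0.0467 and 0.117 in sDH. No library of the DH lines or sDH reached 1n, and the 2 sDH libraries together held 3 counts. By counts it was 42.1 times lower in sDH than in 1n (95% counting interval 14 to 207, from 106 and 3 counts) and 99.5 times lower than in 2n (33.7 to 485, from 302 and 3 counts). Its fitted falls against 2n were 3.20 ± 0.45 in DH6, 2.61 ± 0.43 in DH9 and 2.03 ± 0.41 in DH14 (edgeR adjusted p = 0.000499, 0.0028 and 0.00487), the last lost without DH14 2 (-1.76). WRKY55 stood at 1.27 and 1.33 CPM in 1n, 1.13 and 0.963 in 2n, 0.539 and 0.190 in DH6, 0.329 and 0.296 in DH9, 1.31 and 0.812 in DH14 and 0.0467 and 0.176 in sDH. DH9, DH6 and sDH lay below 1n and 2n without overlap, and DH14 overlapped 2n and 1n. It fell against 1n in sDH by 3.55 ± 0.67, in DH9 by 2.04 ± 0.56 and in DH6 by 1.80 ± 0.54 (edgeR adjusted p = 0.00135, 0.019 and 0.0175). The call in DH9 was lost without 1n 2 (-2), DH9 1 (-2.11) or DH9 2 (-1.96), and that in DH6 without 1n 2 or DH6 III, with log2 changes from -2.74 to -1.26.

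WRKY30 (AT5G24110), an early-responding member induced by oxidative stress, was low in DH6 and sDH alone among the groups. It stood at 6.67 and 2.53 CPM in 1n, 7.05 and 10.1 in 2n, 0.270 and 0.759 in DH6, 5.38 and 4.39 in DH9, 11.2 and 6.85 in DH14 and 0.700 and 0.410 in sDH. All 4 libraries of DH6 and sDH lay under 1 CPM, and the 8 others lay above 2 CPM. It fell in DH6 by 3.16 ± 0.57 against 1n and by 4.06 ± 0.54 against 2n (edgeR adjusted p = 0.000983 and 0.000336), and in sDH by 3.01 ± 0.57 and 3.90 ± 0.54 (0.00131 and 0.000337). It was higher than in DH6 by 3.24 ± 0.56 in DH9 and by 4.13 ± 0.54 in DH14 (edgeR adjusted p = 0.00383 and 0.000512). The remaining member, WRKY41, stood at 0.242 to 1.26 CPM over all libraries.

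**Figure D3:**
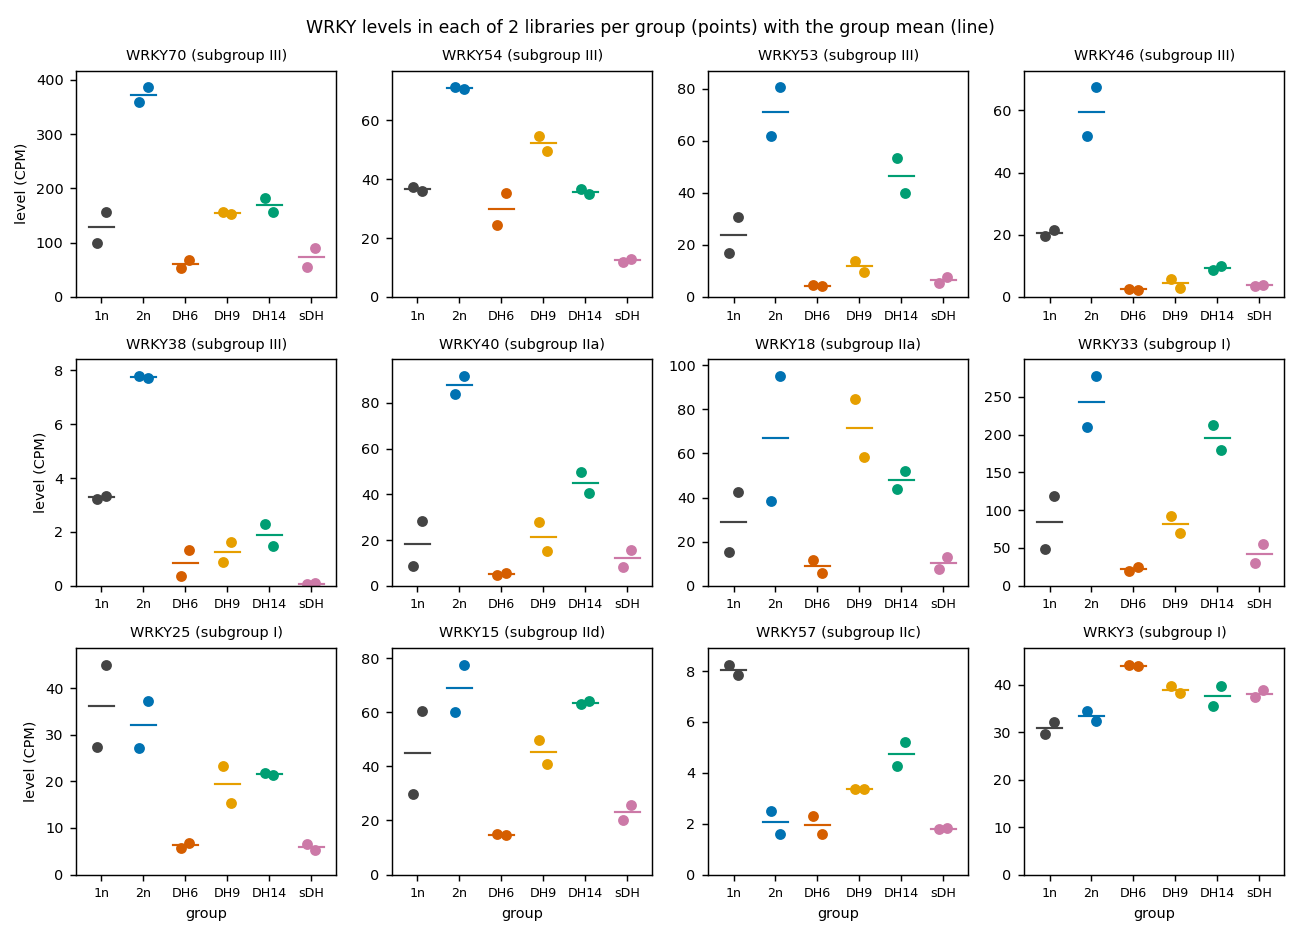
Levels in CPM of 12 WRKY genes, 1 panel each with its own axis from 0, in the 6 groups. Points are the 2 libraries of a group and lines the group means. WRKY70, WRKY53, WRKY46 and WRKY40 peak in 2n, WRKY33 is about as high in DH14 as in 2n, WRKY54 in DH9 lies between 1n and 2n, and WRKY3 varies little.

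Subgroup IIa holds WRKY18, WRKY40 and WRKY60, which bind each other and act partly in exchange for one another as modulators of defence and abscisic acid responses. Their summed level was 27.5 and 77.4 CPM in 1n, 125 and 189 in 2n, 18.3 and 12.9 in DH6, 115 and 74.5 in DH9, 96.0 and 95.6 in DH14 and 17.2 and 29.7 in sDH. Of all tested genes, 24.5% fell in DH6 and 24.4% in sDH against 1n, and 13.2% and 15% against 2n. Against 1n, 3 of 3 fell in DH6 and 2 in sDH, but 1 in DH6 without 1n 2 or DH6 III and 1 in sDH without 1n 2 or either sDH library, and against 2n 2 fell in DH6 and 2 in sDH whichever library was left out. WRKY40 (AT1G80840) stood at 8.48 and 28.4 CPM in 1n, 84.1 and 91.7 in 2n, 4.72 and 5.64 in DH6, 27.9 and 15.2 in DH9, 49.6 and 40.5 in DH14 and 8.21 and 15.7 in sDH. The 1n libraries lay far apart, so that sDH and DH9 overlapped them, while 2n lay above every other library and DH6 below. Its rise in 2n against 1n was 2.26 ± 0.45 (edgeR adjusted p = 0.00243), and in DH6 it fell by 1.83 ± 0.50 (0.0117). The call in DH6 was lost without 1n 2 (-0.711), DH6 II (-1.71) or DH6 III (-1.96). Against 2n it fell, with log2 changes of -4.08 ± 0.51 in DH6, -2.03 ± 0.45 in DH9 and -2.89 ± 0.47 in sDH (edgeR adjusted p = 0.000199, 0.0112 and 0.000934), the call in DH9 being lost without DH9 2 (-1.65). Against 1n its changes in DH9 (0.23 ± 0.46), DH14 (1.29 ± 0.45) and sDH (-0.63 ± 0.47) did not pass, with edgeR adjusted p of 0.745, 0.0586 and 0.289. The first passed without 1n 2 (1.34), the second without 1n 2 (2.41) and the third without 1n 1 (-1.26).

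WRKY18 (AT4G31800) had its highest single value in 2n WT2. It stood at 15.3 and 42.5 CPM in 1n, 38.6 and 95.04 in 2n, 11.8 and 5.93 in DH6, 84.8 and 58.5 in DH9, 43.9 and 52.2 in DH14 and 7.42 and 12.8 in sDH. DH6 and sDH lay below every other library, and the remaining groups overlapped or neared one another. It fell against 2n in DH6 by 2.91 ± 0.54 and in sDH by 2.73 ± 0.54 (edgeR adjusted p = 0.00276 and 0.00306). Its falls against 1n in DH6 (1.70 ± 0.54, edgeR adjusted p = 0.023) and sDH (1.52 ± 0.54, 0.0361) were lost without 1n 2, the former also without DH6 III and the latter without either sDH library, with log2 changes over the fits from -2.29 to -0.78 and from -2.08 to -0.608. WRKY60 (AT2G25000) was highest in 1n, at 3.76 and 6.57 CPM, and stood at 2.12 and 2.25 CPM in 2n, 1.84 and 1.33 in DH6, 2.03 and 0.839 in DH9, 2.52 and 2.84 in DH14 and 1.59 and 1.11 in sDH. No library of another group reached 1n, and the other groups lay close together. Unlike WRKY40, it fell in 2n against 1n (-1.24 ± 0.38, edgeR adjusted p = 0.0242), a call lost without 1n 2, WT1 or WT2, with log2 changes from -1.59 to -0.781. WRKY60 also fell against 1n in DH6 and in sDH, kept whichever library was left out, and in DH9, lost without DH9 2. The log2 changes over these fits ran from -2.04 to -1.24 in DH6, -2.26 to -1.46 in sDH and -2.61 to -1.34 in DH9.

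Group I, whose proteins carry a WRKY domain at each end, had 11 of 13 listed genes tested, and it held defence regulators that differed between groups as well as members that varied little. Against 1n, 2 rose and 8 fell in DH6, and 2 rose and 8 fell in sDH (18.2% and 72.7% in each). Of all tested genes, 22.6% rose and 24.5% fell in DH6, and 24.1% and 24.4% in sDH. The risen share in DH14 against DH6 was 72.7%, beside 14.1% of all tested genes. Fallen genes without 1n 2 were 6 in DH6 and 5 in sDH, and 5 in sDH without sDH II, while the risen genes were 1 in DH6 without DH6 II. In sDH the risen genes were 0 without 1n 1 or sDH III, 1 without sDH II and 3 without 1n 2. In DH14 against DH6, 8 rose, and 4 did without DH6 II or DH14 1 and 5 without DH6 III or DH14 2. WRKY33 (AT2G38470), which is phosphorylated by MAP kinases and activates camalexin synthesis against necrotrophic fungi, stood at 48.5 and 119 CPM in 1n, 210 and 277 in 2n, 19.9 and 24.9 in DH6, 92.7 and 70.2 in DH9, 212 and 179 in DH14 and 30.2 and 54.8 in sDH. DH14 reached the lower 2n library, DH9 lay within the 1n range, sDH overlapped it, and DH6 lay below all other libraries. It rose in 2n against 1n by 1.54 ± 0.37 (edgeR adjusted p = 0.00655) and in DH14 against 1n by 1.22 ± 0.37 (0.0329). It fell against 1n in DH6 by 1.91 ± 0.38 (edgeR adjusted p = 0.00198) and in sDH by 0.98 ± 0.37 (0.0466). The rise in DH14 was lost without 1n 1 (0.717), DH14 1 (1.10) or DH14 2 (1.33), and the fall in sDH without 1n 2 (-0.195) or sDH II (-0.609). Against 2n it fell in DH6 by 3.44 ± 0.40 and in sDH by 2.52 ± 0.38 (edgeR adjusted p = 0.000133 and 0.00059). In DH9 against 2n it fell by 1.58 ± 0.37 (0.0143), lost without WT2 (-1.37), DH9 1 (-1.79) or DH9 2 (-1.39). In DH14 against 2n its change of -0.32 ± 0.36 did not pass (0.552). DH14 exceeded DH6 by 3.13 ± 0.39 (edgeR adjusted p = 0.000431).

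WRKY25 (AT2G30250), a relative of WRKY33 with a part in heat tolerance, did not follow WRKY33 in 2n. It stood at 27.3 and 45.0 CPM in 1n, 27.2 and 37.2 in 2n, 5.75 and 6.83 in DH6, 23.3 and 15.5 in DH9, 21.7 and 21.4 in DH14 and 6.53 and 5.27 in sDH. The 1n and 2n libraries overlapped, DH9 and DH14 lay below them, and DH6 and sDH lay under 7 CPM. It fell in DH6 by 2.52 ± 0.27 against 1n and 2.35 ± 0.27 against 2n (edgeR adjusted p = 3.8e-05 and 0.00012), and in sDH by 2.60 ± 0.27 and 2.44 ± 0.27 (2.76e-05 and 7.92e-05). Its change in 2n against 1n, -0.17 ± 0.24, did not pass (edgeR adjusted p = 0.615). WRKY25 also fell against 1n in DH9, lost without 1n 2 or DH9 2, and in DH14, lost without 1n 2, DH14 1 or DH14 2. The log2 changes over the fits that leave out 1 library ran from -1.22 to -0.494 in DH9 and from -1.06 to -0.339 in DH14. WRKY58 (AT3G01080), a modulator of systemic acquired resistance, stood at 5.64 and 5.05 CPM in 1n, 4.09 and 4.71 in 2n, 1.39 and 1.90 in DH6, 4.77 and 4.79 in DH9, 4.31 and 4.41 in DH14 and 1.35 and 1.58 in sDH. The 4 libraries of DH6 and sDH lay under 2 CPM and the 8 others above 4 CPM. It fell in DH6 by 1.70 ± 0.22 against 1n and 1.42 ± 0.22 against 2n (edgeR adjusted p = 0.000111 and 0.000807), and in sDH by 1.87 ± 0.22 and 1.59 ± 0.22 (6.29e-05 and 0.000362). The falls of WRKY25 and WRKY58 in DH6 and sDH were kept whichever library was left out.

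Several genes that rose against 1n in DH lines or sDH were also in group I, and of these WRKY44 and WRKY32 rose in 2n too. WRKY3 (AT2G03340), which acts in resistance to necrotrophs, stood at 29.5 and 32.2 CPM in 1n, 34.4 and 32.3 in 2n, 44.1 and 43.9 in DH6, 39.7 and 38.3 in DH9, 35.6 and 39.7 in DH14 and 37.4 and 38.9 in sDH. Its group means differed by at most 1.43 times, with DH6 highest and 1n lowest. It rose against 1n in DH6 by 0.51 ± 0.09 (edgeR adjusted p = 0.000987) and in sDH by 0.31 ± 0.09 (0.018), the latter lost without 1n 1 (0.248) or sDH III (0.281). It rose against 2n in DH6 by 0.40 ± 0.09 (0.00872), lost without WT2 (0.349) or DH6 II (0.35). WRKY3 also rose against 1n in DH9, lost without 1n 1, DH9 1 or DH9 2. Its rise in DH14 against 1n was lost without 1n 1, DH14 1 or DH14 2. The log2 changes over the fits that leave out 1 library ran from 0.28 to 0.403 in DH9 and from 0.194 to 0.369 in DH14. WRKY44 (AT2G37260), also known as TTG2 and needed for trichome and seed coat development, stood at 0.545 and 2.15 CPM in 1n, 3.60 and 2.84 in 2n, 3.91 and 3.46 in DH6, 3.13 and 2.81 in DH9, 3.99 and 3.60 in DH14 and 3.41 and 2.87 in sDH. The 1n libraries were both the lowest and the farthest apart, and the other libraries stood between 2.81 and 3.99 CPM. It rose against 1n in DH6 by 1.46 ± 0.42, in DH14 by 1.501 ± 0.42 and in sDH by 1.23 ± 0.42 (edgeR adjusted p = 0.014, 0.0243 and 0.0324). These calls were lost without DH6 II (1.36) in DH6, without 1n 1 (0.822), DH14 1 (1.43) or DH14 2 (1.56) in DH14, and without 1n 1 (0.554), sDH II (1.10) or sDH III (1.35) in sDH. WRKY44 also rose in 2n against 1n, lost without 1n 1, WT1 or WT2, with log2 changes from 0.586 to 2.55. Against 2n it changed in no DH line and not in sDH. WRKY32 (AT4G30935) stood at 8.79 and 11.8 CPM in 1n, 14.2 and 14.2 in 2n, 12.1 and 13.2 in DH6, 14.0 and 15.8 in DH9, 11.3 and 9.79 in DH14 and 13.1 and 13.0 in sDH. It overlapped 1n in DH14 only. WRKY32 rose in DH9 against 1n by 0.54 ± 0.15 (edgeR adjusted p = 0.0179), and the call was lost without 1n 1 (0.344) or DH9 2 (0.452). It also rose in 2n against 1n, lost without 1n 1, WT1 or WT2, with log2 changes from 0.269 to 0.694. The remaining group I genes tested were WRKY1, WRKY2, WRKY4, WRKY20 and WRKY26, of which WRKY1 and WRKY20 had highest group means 1.31 and 1.56 times their lowest.

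**Figure D4:**
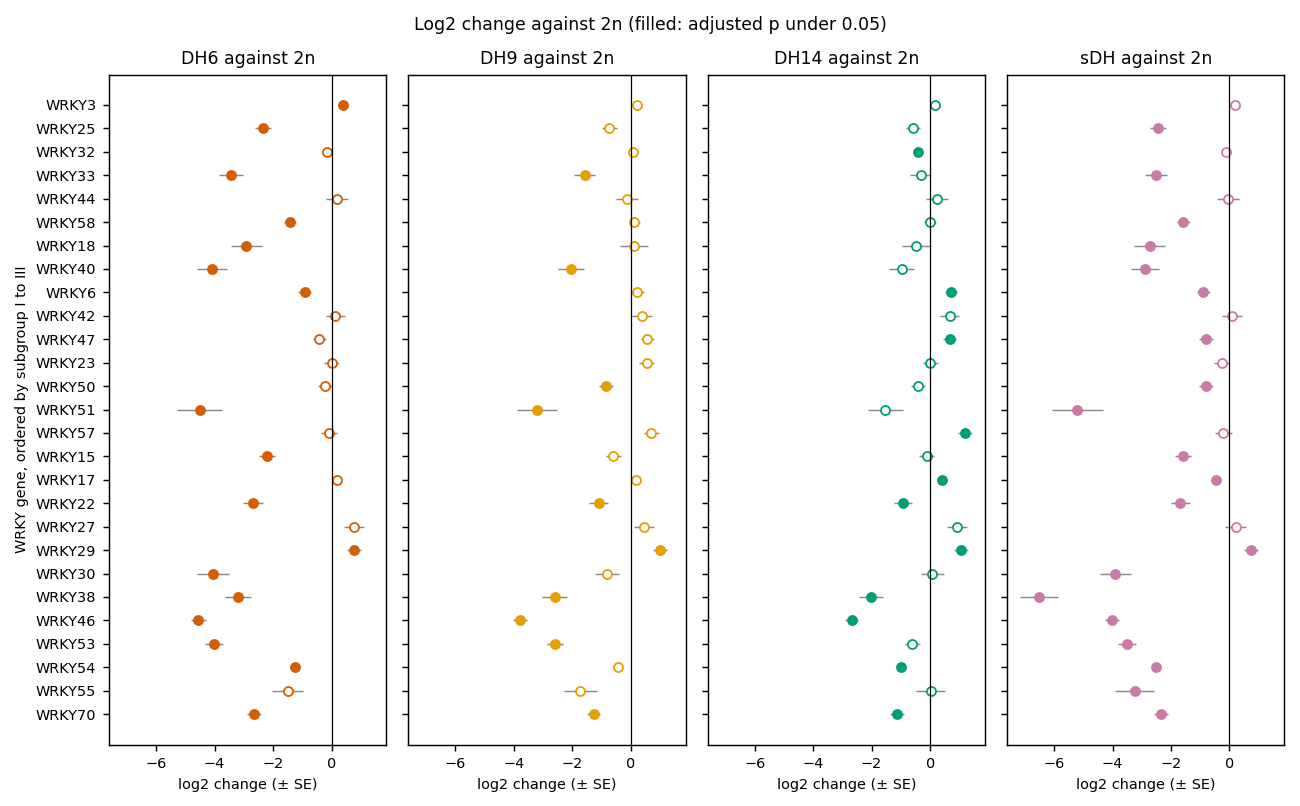
Log2 change with its SE of 27 WRKY genes in DH6, DH9, DH14 and sDH against 2n, from edgeR. Filled points have an adjusted p under 0.05. WRKY46, WRKY38, WRKY70 and WRKY22 lie below 0 as filled points in all 4 groups, and WRKY29 lies above 0 as a filled point in all 4.

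Subgroup IId holds calmodulin-binding members, and all 6 listed were tested. Of all tested genes, 24.5% fell in DH6 and 24.4% in sDH against 1n, and 13.2% and 15% against 2n. Against 1n, 5 fell in DH6 and 3 in sDH, and against 2n 5 fell in DH6 and 4 in sDH. On leaving out a library these were 4 to 5, 1 to 4, 3 to 4 and 3 to 4. In sDH against 1n, 1 fell without 1n 2 and 1 without sDH II. In DH6 against 2n, 3 fell without WT1, WT2 or DH6 II. WRKY15 (AT2G23320), a regulator of growth and of responses to osmotic stress, stood at 29.8 and 60.3 CPM in 1n, 60.1 and 77.4 in 2n, 15.1 and 14.5 in DH6, 49.7 and 40.9 in DH9, 63.0 and 64.0 in DH14 and 20.2 and 25.9 in sDH. DH6 was lowest, sDH next, and the other 4 groups overlapped in part. It fell in DH6 by 1.61 ± 0.27 against 1n and 2.22 ± 0.27 against 2n (edgeR adjusted p = 0.000674 and 0.000191). In sDH it fell by 0.97 ± 0.27 against 1n and 1.58 ± 0.27 against 2n (0.0109 and 0.00116), the former lost without 1n 2 or sDH II, with log2 changes from -1.39 to -0.376. WRKY17 (AT2G24570), a negative regulator of basal defence, had another pattern, with 27.5 and 23.5 CPM in 1n, 13.1 and 13.3 in 2n, 15.8 and 14.5 in DH6, 16.1 and 13.7 in DH9, 17.8 and 17.0 in DH14 and 9.89 and 9.13 in sDH. Both 1n libraries lay above all others. It fell against 1n in 2n by 0.95 ± 0.12, in DH6 by 0.75 ± 0.12, in DH9 by 0.78 ± 0.12 and in sDH by 1.42 ± 0.12 (edgeR adjusted p = 0.000117, 0.000404, 0.000731 and 8.53e-06). In DH14 it fell by 0.55 ± 0.12 (0.00693), lost without DH14 2 (log2 changes over the fits from -0.658 to -0.433).

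Subgroup IIe had 4 of 7 listed genes tested. WRKY22 (AT4G01250) and WRKY29 (AT4G23550) act downstream of the MAP kinase cascade that responds to bacterial flagellin, and they differed from each other. WRKY22 stood at 8.73 and 19.4 CPM in 1n, 30.7 and 36.9 in 2n, 5.75 and 4.74 in DH6, 16.7 and 14.8 in DH9, 20.3 and 15.4 in DH14 and 7.89 and 13.4 in sDH. The 2n libraries were highest, DH6 was lowest, and the other groups overlapped 1n. Its rise in 2n against 1n was 1.27 ± 0.32 (edgeR adjusted p = 0.00824), lost without WT2 (log2 changes over the fits from 0.802 to 1.95), and it fell against 2n in DH6 by 2.68 ± 0.34 and in sDH by 1.68 ± 0.32 (0.000233 and 0.00252). WRKY22 also fell against 2n in DH9 and in DH14, but both calls were lost whichever library was left out. The log2 changes over those fits ran from -1.23 to -0.964 in DH9 and from -1.13 to -0.756 in DH14. WRKY29 stood at 4.24 and 4.11 CPM in 1n, 3.25 and 2.46 in 2n, 4.00 and 5.74 in DH6, 6.42 and 5.14 in DH9, 6.62 and 5.33 in DH14 and 4.90 and 4.57 in sDH. Its 2n libraries were the lowest of all. It rose against 2n in DH6 by 0.76 ± 0.24, in DH9 by 1.01 ± 0.24, in DH14 by 1.06 ± 0.24 and in sDH by 0.72 ± 0.24 (edgeR adjusted p = 0.0375, 0.0153, 0.008 and 0.0411). Each of these calls was lost without WT2, with log2 changes of 0.575, 0.827, 0.876 and 0.54. They were also lost without DH6 III (0.482), DH9 1 (0.843), DH14 1 (0.895), sDH II (0.673) or sDH III (0.775). WRKY27 (AT5G52830), known for its effect on symptoms of bacterial wilt, was higher in 1n, at 4.79 and 4.93 CPM, than in any other library, with 1.33 and 0.803 CPM in 2n. All other libraries stood between 0.803 and 2.52 CPM. WRKY27 fell against 1n in 2n by 2.17 ± 0.32, in DH6 by 1.41 ± 0.30, in DH9 by 1.73 ± 0.31 and in sDH by 1.97 ± 0.32 (edgeR adjusted p = 0.000341, 0.00279, 0.00191 and 0.000453). In DH14 it fell by 1.25 ± 0.30 (0.0128), lost without DH14 2 (-0.956).

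Subgroup IIb had 4 of 6 listed genes tested. WRKY6 (AT1G62300), which acts in senescence and represses the phosphate exporter gene PHO1, stood at 10.4 and 14.9 CPM in 1n, 9.07 and 10.2 in 2n, 5.57 and 4.55 in DH6, 11.6 and 10.9 in DH9, 16.3 and 15.0 in DH14 and 6.16 and 4.04 in sDH. DH6 and sDH were lowest and DH14 highest. WRKY6 fell against 1n in DH6 by 1.32 ± 0.22 and in sDH by 1.29 ± 0.22 (edgeR adjusted p = 0.000602 and 0.000653). It rose in DH14 against 2n by 0.70 ± 0.21 (edgeR adjusted p = 0.0284), a call lost without WT1 (0.619), WT2 (0.786), DH14 1 (0.639) or DH14 2 (0.74). WRKY47 (AT4G01720) stood at 12.5 and 8.78 CPM in 1n, 4.19 and 4.01 in 2n, 3.55 and 2.56 in DH6, 5.595 and 6.52 in DH9, 6.30 and 6.70 in DH14 and 2.43 and 2.28 in sDH. 1n was highest with no overlap, DH9 and DH14 lay between 1n and 2n, and DH6 and sDH lay below 2n. Against 1n it fell in 2n by 1.37 ± 0.21, in DH6 by 1.79 ± 0.22 and in sDH by 2.17 ± 0.23 (edgeR adjusted p = 0.000493, 8.29e-05 and 2.7e-05). WRKY47 also fell against 1n in DH9, lost without 1n 1 or DH9 1. Its fall in DH14 against 1n was lost without 1n 1, DH14 1 or DH14 2. The log2 changes over the fits that leave out 1 library ran from -1.04 to -0.53 in DH9 and from -0.939 to -0.431 in DH14. WRKY42 (AT4G04450), another repressor of PHO1, stood at 1.45 and 1.77 CPM in 1n, 2.61 and 1.55 in 2n, 2.34 and 2.23 in DH6, 2.58 and 2.86 in DH9, 4.20 and 2.49 in DH14 and 2.52 and 1.87 in sDH. Both 1n libraries lay below those of every group other than 2n. WRKY42 rose in DH14 against 1n by 1.05 ± 0.34 (edgeR adjusted p = 0.0468), and the call was lost without 1n 1 (0.917), 1n 2 or DH14 1 (0.628), with log2 changes of at most 1.37.

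Subgroup IIc had 11 of 15 listed genes tested. Of all tested genes, 24.5% fell in DH6 and 24.4% in sDH against 1n. In the subgroup, 4 fell in DH6 (36.4%) and 5 in sDH (45.5%) against 1n. Without 1n 1 these were 7 and 7, and the 5 in sDH were 3 without 1n 2 or without sDH II. WRKY57 (AT1G69310), which acts in drought tolerance and restrains jasmonate-induced senescence, stood at 8.24 and 7.83 CPM in 1n, 2.51 and 1.61 in 2n, 2.29 and 1.61 in DH6, 3.35 and 3.36 in DH9, 4.25 and 5.23 in DH14 and 1.77 and 1.81 in sDH. 1n was highest with no overlap, and 2n, DH6 and sDH overlapped at the bottom. Against 1n it fell in 2n by 1.96 ± 0.25, in DH6 by 2.04 ± 0.25, in DH9 by 1.26 ± 0.24 and in sDH by 2.16 ± 0.26 (edgeR adjusted p = 0.000131, 8.56e-05, 0.00261 and 5.81e-05). It was higher in DH14 than in 2n by 1.195 ± 0.25 (0.00595), lost without DH14 2 (1.02). WRKY57 also fell in DH14 against 1n, a call lost whichever library was left out, with log2 changes from -0.929 to -0.617. WRKY50 (AT5G26170) and WRKY51 (AT5G64810) both repress jasmonate responses when salicylic acid is high, and they differed in 2n. WRKY50 stood at 10.1 and 9.22 CPM in 1n, 4.63 and 4.87 in 2n, 3.42 and 4.69 in DH6, 3.02 and 2.27 in DH9, 4.20 and 2.94 in DH14 and 2.80 and 2.63 in sDH. It was highest in 1n with no overlap. Against 1n it fell in all 5 other groups by 1.02 to 1.87 on the log2 scale (edgeR adjusted p from 0.000105 to 0.00396), each kept whichever library was left out.

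WRKY51 stood at 3.58 and 5.05 CPM in 1n, 6.41 and 5.35 in 2n, 0.494 and 0 in DH6, 0.878 and 0.395 in DH9, 2.73 and 1.32 in DH14 and 0.280 and 0 in sDH. It had no count in DH6 III or in sDH III, and 1n and 2n lay above all libraries of the other groups. Against 1n it fell in DH6, DH9 and sDH (log2 changes of -4.06 ± 0.79, -2.77 ± 0.70 and -4.75 ± 0.88, edgeR adjusted p = 0.00166, 0.0127 and 0.00112), where the call in DH9 was lost without DH9 2 (-2.28). The fitted size in DH6 and sDH rested on the libraries with counts: it was -9.34 without DH6 II and -3.1 without DH6 III, and -9.35 without sDH II and -3.91 without sDH III. WRKY23 (AT2G47260), an auxin-responsive gene of root development, stood at 3.94 and 6.38 CPM in 1n, 6.26 and 6.26 in 2n, 6.92 and 5.64 in DH6, 8.28 and 9.88 in DH9, 5.67 and 6.90 in DH14 and 6.16 and 4.16 in sDH. Both DH9 libraries lay above all others. WRKY23 rose in DH9 against 1n by 0.82 ± 0.25 (edgeR adjusted p = 0.0306), and the call was lost without 1n 1 (0.513), DH9 1 (0.942) or DH9 2 (0.688). WRKY75 (AT5G13080), which acts in phosphate starvation and senescence, had 3 and 19 counts in 1n, 30 and 9 in 2n, 3 and 3 in DH6, 1 and 0 in DH9, 3 and 7 in DH14 and 0 and 1 in sDH. Its ratio of 1n to DH9 was 26.2 (95% counting interval 4.23 to 1080), and that of 1n to sDH was 26.2 (4.24 to 1080). It fell against 1n in DH9 and in sDH (edgeR adjusted p = 0.0329 and 0.0215), the former lost without 1n 2, DH9 1 or DH9 2 and the latter without 1n 2 or sDH II, with log2 changes from -6.74 to -2.53 in both.

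The 11 genes that could not be tested were WRKY9, WRKY10, WRKY12, WRKY14, WRKY31, WRKY34, WRKY35, WRKY43, WRKY56, WRKY59 and WRKY65. WRKY10, also known as MINISEED3 and active in the endosperm of seeds, had 4 counts in DH6 and none elsewhere. WRKY59 (AT2G21900) had 12 counts in 1n and 8 in 2n, and none in the 8 libraries of the DH lines and sDH. Against a floor of 3 counts over a group, it was at least 5.36-fold lower in DH6, 4.76-fold in DH9, 4.79-fold in DH14 and 4.77-fold in sDH than in 1n. Most of its 1n level was in 1n 2, with 0.121 CPM in 1n 1 and 0.632 CPM in 1n 2.

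Genes that act with WRKY proteins were read from 4 lists of known names. The MAP kinase cascade that phosphorylates group I members had 9 genes, all tested. Against 1n, 8 fell in DH6 (88.9%) and 7 in sDH (77.8%), beside 24.5% and 24.4% of all tested genes. Against 2n, 8 fell in DH6 and 7 in sDH, the same shares, beside 13.2% and 15%. In 2n against 1n 2 rose (22.2%), near the 21% of all tested genes. In DH6 against 2n, 5 fell without WT2 or DH6 II, and in 2n against 1n 3 rose without either 1n library. MPK11 (AT1G01560), a MAP kinase activated by microbial patterns, stood at 11.8 and 14.7 CPM in 1n, 23.8 and 38.2 in 2n, 0.899 and 1.33 in DH6, 8.45 and 6.62 in DH9, 10.3 and 9.03 in DH14 and 1.12 and 0.293 in sDH. DH6 and sDH lay far below all other libraries, and 2n was highest. It fell against 2n, with log2 changes of -4.80 ± 0.36 in DH6 and -5.37 ± 0.39 in sDH (edgeR adjusted p = 1.1e-05 and 4.59e-06). MKK1 and MKK2 are MAP kinase kinase genes. MKK1 stood at 41.7 and 42.1 CPM in 1n, 52.9 and 57.1 in 2n, 17.3 and 16.5 in DH6, 41.7 and 35.3 in DH9, 38.9 and 40.4 in DH14 and 17.3 and 10.8 in sDH. MKK2 stood at 65.1 and 54.1 CPM in 1n, 58.1 and 60.6 in 2n, 29.0 and 32.3 in DH6, 45.4 and 42.8 in DH9, 45.2 and 45.0 in DH14 and 25.9 and 24.7 in sDH. DH6 and sDH lay below all other libraries for both genes. They fell against 1n in DH6 by 1.31 ± 0.17 and 0.96 ± 0.11 (edgeR adjusted p = 0.000124 and 4.31e-05) and in sDH by 1.56 ± 0.17 and 1.24 ± 0.11 (3.77e-05 and 8.53e-06).

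Salicylic acid signalling, which lies both upstream and downstream of group III members, had 16 genes, all tested. Against 1n, 12 fell in DH6 (75%), 14 in sDH (87.5%), 5 in DH9 (31.2%) and 5 in DH14 (31.2%). The shares of all tested genes that fell were 24.5%, 24.4%, 14.8% and 11.8%. Against 2n the numbers were 13 (81.2%), 13 (81.2%), 7 (43.8%) and 8 (50%), beside 13.2%, 15%, 8.57% and 13.6%. In 2n against 1n the risen and fallen shares of the list were 12.5% each, beside 21% and 19.9%. In 2n against 1n, 2 rose and 2 fell, where 5 rose and 1 fell without 1n 2 and 1 rose without WT2. In DH14 the fallen genes were 3 against 1n without DH14 1, and 5 against 2n without WT1 or DH14 2. ICS1 (AT1G74710), the main enzyme of salicylic acid synthesis, stood at 48.5 and 43.2 CPM in 1n, 37.8 and 28.2 in 2n, 14.3 and 14.2 in DH6, 16.4 and 17.4 in DH9, 24.5 and 23.5 in DH14 and 16.1 and 14.8 in sDH. 1n was highest and every DH line and sDH lay below 2n with no overlap. ICS1 fell in 2n against 1n by 0.47 ± 0.13 (edgeR adjusted p = 0.0117), and in DH6 against 1n by 1.69 ± 0.13 (7.16e-06). PAD4, an activator of the pathway, stood at 51.9 and 53.3 CPM in 1n, 37.9 and 44.1 in 2n, 9.89 and 13.5 in DH6, 18.2 and 13.1 in DH9, 18.4 and 20.9 in DH14 and 5.65 and 4.68 in sDH. PAD4 was highest in 1n and lowest in sDH, with no overlap. It fell against 1n in DH6 by 2.17 ± 0.18 and in sDH by 3.34 ± 0.19 (edgeR adjusted p = 8.25e-06 and 1.26e-06). PBS3, which acts after ICS1 in the same synthesis, stood at 22.1 and 31.1 CPM in 1n, 18.8 and 13.2 in 2n, 4.18 and 4.84 in DH6, 5.16 and 4.35 in DH9, 5.88 and 6.495 in DH14 and 3.78 and 4.92 in sDH. Every library of the DH lines and sDH lay below 2n, and 2n below 1n. PBS3 fell against 1n in DH6 by 2.56 ± 0.23 and in sDH by 2.62 ± 0.23 (1.23e-05 and 9.49e-06).

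VQ proteins bind WRKY domains, and 11 of 13 listed genes were tested. Against 1n, 6 fell in DH6 (54.5%) and 8 in sDH (72.7%), beside 24.5% and 24.4% of all tested genes. Against 2n 8 and 9 fell (72.7% and 81.8%), beside 13.2% and 15%. In 2n against 1n the risen and fallen shares were 27.3% and 18.2%, near the 21% and 19.9% of all tested genes. In 2n against 1n, 3 rose and 2 fell, with 5 and 1 without 1n 2, and 2 rose without WT1. In sDH against 1n, 5 fell without 1n 2. SIB1 (AT3G56710), a partner of WRKY33, stood at 24.8 and 32.7 CPM in 1n, 107 and 105 in 2n, 13.8 and 20.4 in DH6, 32.4 and 24.9 in DH9, 43.6 and 37.1 in DH14 and 14.9 and 17.2 in sDH. 2n was highest, DH14 came next, and DH6 and sDH were lowest, with no overlap with 1n. It rose in 2n against 1n by 1.88 ± 0.20 (edgeR adjusted p = 3.13e-05) and fell against 2n in DH6 by 2.63 ± 0.20 and in DH14 by 1.39 ± 0.19 (1.15e-05 and 0.000488). CAMBP25 stood at 12.1 and 15.8 CPM in 1n, 17.1 and 17.3 in 2n, 3.15 and 2.85 in DH6, 6.91 and 5.48 in DH9, 12.6 and 11.3 in DH14 and 4.15 and 6.85 in sDH. MVQ1 stood at 40.5 and 48.8 CPM in 1n, 35.4 and 35.3 in 2n, 24.9 and 26.2 in DH6, 46.8 and 44.2 in DH9, 49.1 and 52.3 in DH14 and 24.5 and 26.5 in sDH. DH6 lay below 1n for both, and DH14 lay at or near the 1n range. They fell in DH6 against 1n by 2.21 ± 0.23 and 0.81 ± 0.10 (edgeR adjusted p = 3.56e-05 and 0.000123).

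Of 16 genes reported as targets of WRKY proteins, 12 were tested. In 2n against 1n, 4 rose and 1 fell (33.3% and 8.33%), beside 21% and 19.9% of all tested genes. Against 1n, 1 rose and 7 fell (8.33% and 58.3%) in DH6 and in sDH. There 22.6% and 24.1% of all tested genes rose, and 24.5% and 24.4% fell. Against 2n, 8 fell in each of DH6, DH9 and sDH (66.7%), beside 13.2%, 8.57% and 15%. In DH14 against 2n 6 fell (50%), beside 13.6%. On leaving out a library, DH9 against 2n had 5 without WT1 or DH9 2, DH14 against 2n had 4 without WT1 or WT2 and 3 without DH14 2, and in 2n against 1n 3 fell without 1n 1. PAD3 (AT3G26830), the last enzyme of camalexin synthesis and a target of WRKY33, stood at 6.24 and 4.67 CPM in 1n, 32.7 and 47.5 in 2n, 0.854 and 0.806 in DH6, 5.32 and 2.77 in DH9, 15.4 and 7.66 in DH14 and 0.187 and 0 in sDH. 2n was highest and DH14 next, with no overlap between them. PAD3 rose in 2n against 1n by 2.87 ± 0.37 (edgeR adjusted p = 0.000147) and fell in DH6 against 2n by 5.58 ± 0.46 (1.79e-05). RRTF1, an early redox-responsive transcription factor gene, stood at 0.727 and 3.03 CPM in 1n, 35.3 and 28.7 in 2n, 0.449 and 0.284 in DH6, 4.22 and 1.33 in DH9, 5.57 and 4.31 in DH14 and 2.57 and 2.28 in sDH. Both 2n libraries lay far above the rest. RRTF1 rose in 2n against 1n by 4.10 ± 0.51 (edgeR adjusted p = 0.000106). PR1, the marker gene of the salicylic acid response, stood at 166 and 466 CPM in 1n and 138 and 77.6 CPM in 2n, and had no count in sDH. It was at least 4010-fold lower in sDH than in 1n and at least 1400-fold lower than in 2n, against a floor of 3 counts over the group. PR1 stood at 0.439 and 0.296 CPM in DH9, 1.16 and 1.47 in DH14 and 1.26 and 12.6 in DH6. The summed WRKY level of the DH9 and DH14 libraries, 770 to 1072 CPM, lay within or just above the 1n range of 649 to 963 CPM. In the same libraries WRKY46, WRKY38 and WRKY50 lay below both 1n libraries, as did ICS1, PAD4 and PBS3. How PR1 relates to the WRKY levels was not tested.

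Genes of the circadian clock also differed between the groups, and the labels give no hour of harvest. CCA1 (AT2G46830), a morning-expressed clock gene, stood at 178 and 71.2 CPM in 1n, 1.04 and 1.02 in 2n, 18.1 and 15.4 in DH6, 22.3 and 23.2 in DH9, 88.2 and 99.96 in DH14 and 88.5 and 57.6 in sDH. ELF4 (AT2G40080), an evening-expressed one, stood at 1.27 and 4.86 CPM in 1n, 75.3 and 66.6 in 2n, 29.1 and 25.4 in DH6, 38.7 and 38.5 in DH9, 11.5 and 7.10 in DH14 and 13.6 and 16.8 in sDH. LHY (AT1G01060), another morning-expressed gene, stood at 176 and 38.9 CPM in 1n, 0.394 and 0.428 in 2n, 5.89 and 3.65 in DH6, 14.5 and 17.1 in DH9, 61.1 and 65.3 in DH14 and 39.1 and 24.4 in sDH. In 2n CCA1 and LHY were lowest and ELF4 highest, with no overlap with any other group, and 2n also had the highest summed WRKY level. The 1n libraries lay apart for all 3 genes. The part of these differences in the changes of WRKY genes was not tested.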

How the data were processed

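RNA from leaves was sequenced in 12 libraries of 6 groups of 2. The values used are read counts per gene as deposited by the authors. Per the submitters' processing notes, HISAT2, Subread, DESeq2 and the TAIR10 build were used, and no source used here gives their settings, strand rule or handling of shared reads. The 5 gene tables were joined on the gene identifier. Columns headed WT were taken as 2n, as no other group was left, and the numerals II and III of DH6 and sDH were kept. In the sDH table both 1n columns hold counts of 1n 1, so 1n 2 was read from the other tables.

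Tools were edgeR 4.0.16, DESeq2 1.42.0 and limma 3.58.1 in R 4.3.3. Genes were kept by filterByExpr (minimum count 10, total 15), leaving 19201, normalised by TMM, and fitted in 1 quasi-likelihood model with a mean per group over all 12 libraries. P-values were adjusted by Benjamini-Hochberg over all genes, with a threshold of 0.05. The SE is the size of the log2 change over the root of F. The fit was tested on simulated data. One count equals 0.0449 to 0.0632 CPM, and the floor of 3 counts in a single library equals 0.135 to 0.189 CPM. Intervals and floors cover counting error only.

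The WRKY genes and the other lists were chosen with earlier results of these data known. All 58 names matched the reference table (TAIR10.1), whose coordinates were used only to find listed WRKY genes that are neighbours. Values in every library are given for up to 3 genes with the highest and 3 with the lowest log2 change among changed genes in each comparison against 1n or 2n, where libraries did not overlap and the higher group averaged at least 20 counts, for 2 genes per subgroup and 3 per other list with the smallest p of the 6-group F-test, and for WRKY33, WRKY40, WRKY53 and WRKY70. WRKY60, WRKY75, WRKY59, WRKY10 and the clock genes CCA1, LHY and ELF4 were added after their values were seen. Alternatives were another normalisation, no filter, the compared groups alone, a replicate block, DESeq2 and leaving out each library, where the lone library of a group is assumed to vary like the others.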

Additional observations from a re-analysis of the deposited data

Results flagged for a closer look

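WRKY33 and WRKY53 moved in opposite directions in different doubled-haploid lines against the same 1n libraries, and the lines also differed directly. WRKY33 rose in DH14 by 1.22 ± 0.37 on the log2 scale and fell in DH6 by 1.91 ± 0.38 (edgeR adjusted p = 0.0329 and 0.00198), and DH14 against DH6 gave 3.13 (0.000431). WRKY53 rose in DH14 by 0.97 ± 0.27 and fell in DH6 by 2.43 ± 0.31 (edgeR adjusted p = 0.0247 and 0.000119), and DH14 against DH6 gave 3.40 (0.000114). WRKY53 also fell in DH9 by 1.01 ± 0.29 (edgeR adjusted p = 0.0218), and DH14 against DH9 gave 1.98 (0.00391). The 2 direct differences from DH6 were kept whichever library was left out. That between DH14 and DH9 was lost without DH9 2 (1.74, edgeR adjusted p = 0.0811). The rises in DH14 against 1n were lost without 1n 1 (0.717 for WRKY33 and 0.606 for WRKY53), among other libraries.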

How the results depend on the processing

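Of 127 counts of changed WRKY genes recomputed under an alternative, 97 stayed within 1.5 times the reported count. With only the groups compared in the fit, the counts were 8 for DH9 against 1n, 2 for DH14 against 1n, 17 for DH9 against 2n and 10 for DH14 against DH9. With no filter DH14 against DH9 gave 4, and with DESeq2 DH14 against 1n gave 8. The replicate block was fitted on 1n, DH9 and DH14, whose columns were matched to numbered samples, while those of the other groups were matched to the group alone. It gave 11 for DH9 against 1n, 4 for DH14 against 1n and 0 for DH14 against DH9 (edgeR, where 11 passed an unadjusted p under 0.05). The same 3 groups without the block, an alternative chosen after seeing the data, gave 5 for DH14 against 1n and 1 for DH14 against DH9. The differences between numbered libraries correlated at -0.14, 0.128 and -0.0328 between groups. With 1 difference per group, these values cannot decide whether libraries of the same number belong together, and no pairing was used. Leaving out 1 library gave 6 to 18 for DH9 against 1n, 4 to 17 for DH14 against 1n, 4 to 7 for DH9 against 2n, 3 to 6 for DH14 against 2n, 7 to 16 for DH9 against DH6, 0 to 2 for DH14 against DH9 and 14 to 21 for the F-test among the lines. Changes of sign were seen only in log2 changes that had not passed. In DH9 against 1n, WRKY40 ran from -0.399 (without 1n 1) to 1.34 (without 1n 2) and gave -0.274 without DH9 1. WRKY70 ran from -0.0163 (without 1n 1) to 0.633 (without 1n 2). WRKY33 ran from -0.549 (without 1n 1) to 0.747 (without 1n 2), with 0.147 without DH9 2 and 0.00551 with the replicate block. In sDH against 1n, WRKY40 ran from -1.26 (without 1n 1) to 0.482 (without 1n 2). Over all genes, DH14 against 1n had 4603 changed genes with all groups in the fit and 1628 with its own, DH9 against 1n 5819 and 3028, 2n against 1n 7852 and 4399, and DH14 against DH9 596 and 1953. The cause of these shifts was not tested. With 2 libraries per group, 1 library can decide a call, and genes below about 1 CPM rest on few counts.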
